A study of Mus musculus with 2 samples.

Results

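The cytosolic ribosomal protein genes encode the proteins of the small and large ribosomal subunits that translate nuclear messages in the cytoplasm. Members were taken by symbol, as genes named Rps or Rpl with a number and at most a short suffix, the stalk genes Rplp0, Rplp1 and Rplp2, and Rpsa, if they had at least 100 UMIs (unique molecular identifiers, 1 per counted RNA molecule) over both libraries. Of 32285 genes in the table, 83 symbols fitted and 81 were kept, 32 of the small subunit, 46 of the large subunit and 3 of the stalk. Rpl10l, with 0 and 1 UMIs, and Rpl39l, with 31 and 31, fell under the limit. Rpl3l, with 37 and 71 UMIs, lay just above it, and the next member, Rpl7l1, had 6885 and 5129.

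The libraries came from uteri of mice collected 4 h after treatment. Animals of the DOX group were given doxorubicin, an anthracycline that damages DNA, at 3 mg/kg, and those of the DOX plus AMH group the same dose together with anti-Müllerian hormone at 0.75 mg/kg. Both groups therefore carry the drug, and no untreated uterus was analysed here. Uteri of 5 animals were pooled in each group into 1 library of 10x Genomics 3' chemistry, so there is no replicate, no difference could be tested, and all values describe these libraries. Strain and age are not given in the labels. The series text gives 2 weekly doses and postnatal day 25, but for bulk sequencing. Paired values below are DOX first and DOX plus AMH second, levels are CPM (counts per 1000000 UMIs of the cell class), and log2 ratios put DOX plus AMH over DOX. Intervals are exact 95% binomial intervals and cover counting error only.

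The cells kept numbered 7387 and 6738. The median cell held 13739 and 10100.5 UMIs, and 6.50% and 5.72% of all UMIs were mitochondrial. The libraries shared 17 barcodes. Cells were grouped by markers into 10 classes with at least 50 cells in each library, and the members were kept out of the genes used for clustering, although 3 of them would have been among the 2000 most variable genes. The dividing stromal-like cluster (Cenpf, Prc1, Top2a) held 252 and 28 cells and the squamous-like clusters 7 and 482, so these are nearly of 1 library each. The dendritic-like cluster was also led by the immunoglobulin genes Igkc, Ighm and Jchain, and its marker score was nearly as high for B cells (0.985) as for dendritic cells (0.990), so that B cells in it cannot be told apart.

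Ribosomal protein genes are among the most abundantly transcribed genes of a growing cell. In textbook accounts their messages start with a cytosine followed by a run of pyrimidines, the terminal oligopyrimidine or TOP motif, through which mTORC1 signalling controls their translation as a group. Rpl5 and Rpl11 with 5S ribosomal RNA can bind Mdm2, the ligase that degrades p53, and Rps27l, a paralog of Rps27, is a known transcriptional target of p53. Doxorubicin is known to activate p53.

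The start sites of 10 members with values given below are shown because their annotated starts fit the TOP motif to different degrees. Each line runs from 5 bases before the annotated start to 25 bases after it in RefSeq on GRCm38.p6, 30 bases in all, 5′ to 3′. Capitals mark the longest run of at least 5 pyrimidines (C or T) in the stretch, where there is one, and for Rps21 and Rps27l the start shown is the first of 2 in the table.
Rps6: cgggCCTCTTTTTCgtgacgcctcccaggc
Rps18: ccgCTCTCTCTTCCacaggaggcctacacg
Rpl35: CTTTCCTCTTTCTCTCgaaccaggctgctt
Rpl15: gCCTTCTTCCTTTCCTCTggcggcagccat
Rpl38: tcgTTCTTTCCCCgttctcttcggttctca
Rps28: gcggtctcgcgagagcgaaagtgaggcgtg
Rps21: ccgCCCTCCTgcccaatagtgctgcggagg
Rps27: tcgCTCCTTTCCggcggtgacgacctccct
Rps27l: ccgccgCCTCTatcccggaagttgctgagg
Rplp0: ttcgaggaccgcctggTTCTCCTataaaag

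These stretches lie at chr4:86857343-86857372 on the minus strand for Rps6, chr17:33955641-33955670 (minus) for Rps18, chr2:39005107-39005136 (minus) for Rpl35, chr14:18270962-18270991 (minus) for Rpl15 and chr11:114668575-114668604 (plus) for Rpl38. Those of Rps28, Rps21 and Rps27 lie at chr17:33824538-33824567 (minus), chr2:180257374-180257403 (plus) and chr3:90213624-90213653 (minus). That of Rps27l lies at chr9:66946081-66946110 (plus) and that of Rplp0 at chr5:115559462-115559491 (plus). The gene Rps27l spans chr9:66946086-66949516 and Rplp0 spans chr5:115559467-115563727 in the GENCODE annotation of the same build. Of the 81 members, 61 had a RefSeq start, in 73 windows of 300 bases. A C at the annotated start followed by at least 4 pyrimidines was found in 13 of the 73 member windows (17.8%) against 2.51% of all 32851 windows. A run of at least 8 pyrimidines between 15 bases before and 50 bases after the start stood in 65.8% of member windows and 23.3% of all windows. The letters CCGGAAG, the core recognised by ETS factors, were present on either strand in 35.6% of member windows against 8.86%, and AAGATGG, the core recognised by YY1, in 16.4% against 6.34%. TATAAA stood in 9.59% of member windows against 13.6%. A match describes these letters only, and annotated starts can lie some bases away from the start used in these cells.

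In kept cells the members gave 29.4% and 28.0% of all UMIs counted, and 77 of the 81 had a mean level of at least 1000 CPM. The median member stood at 3483 CPM. The lowest level was 0.540 CPM, that of Rpl3l, the copy of Rpl3 known from striated muscle. Each molecule was counted once at its 3' end, so levels need no division by length. Rps24, Rps12, Rpl41 and Rpl23 were among the members with most UMIs. The genes lie on 19 chromosomes, and their coding sequences run from 75 bases (Rpl41) to 1257 bases, with a median of 456.

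The share of UMIs from ribosomal protein genes differed more between cell classes than between the libraries. Stromal-like cells had the highest share, at 32.5% and 31.5%. Mesothelial-like cells, which line the outer surface, stood at 16.1% and 18.4%, macrophage or monocyte-like cells at 16.4% and 19.2%, and lymphatic endothelial-like cells at 17.0% and 18.7%. Epithelial-like cells lay between them, at 25.8% and 26.7%, and lymphocyte-like cells at 25.6% and 27.3%. The shares were 24.8% and 22.7% in smooth muscle-like, 23.3% and 22.8% in vascular endothelial-like, 22.9% and 25.9% in dendritic-like and 22.5% and 21.4% in pericyte-like cells. The order of classes was alike in the libraries (Spearman's rho 0.93 and Pearson's r 0.94 over 10 classes, a description, since the classes of a library share its depth and its free RNA). In DOX, neighbours in the order from epithelial-like to pericyte-like cells differed by less than the 3.04 points between the libraries in dendritic-like cells.

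**Figure D1:**
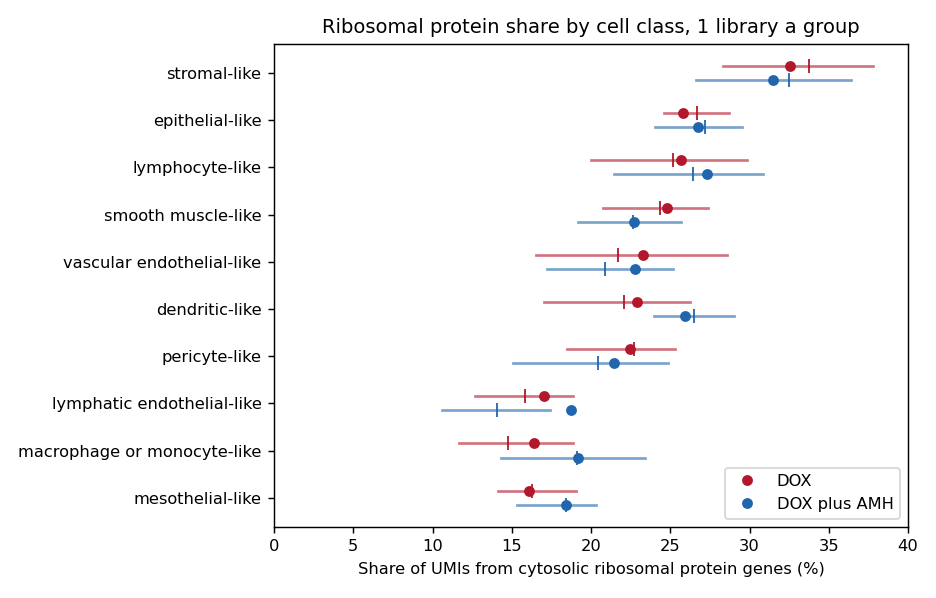
Share of UMIs from the 81 ribosomal protein genes (x axis, %) in each of the 10 cell classes (y axis), in DOX (red) and DOX plus AMH (blue), 1 library each. Dots are the pooled share of the class, ticks the median cell and bars the quartiles over cells, which are not replicates. The pooled share was higher in DOX plus AMH in 6 classes and lower in 4, with stromal-like cells at the top of both libraries (32.5% and 31.5%).

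Between the libraries, the share was lower in DOX plus AMH in the muscle and stromal classes and higher in the immune and mesothelial classes. The difference was -2.10 percentage points in smooth muscle-like, -1.05 in pericyte-like, -1.04 in stromal-like and -0.47 in vascular endothelial-like cells. A higher share was found by 3.04 points in dendritic-like, 2.80 in macrophage or monocyte-like, 2.33 in mesothelial-like, 1.71 in lymphatic endothelial-like, 1.66 in lymphocyte-like and 0.956 in epithelial-like cells. In lymphatic endothelial-like cells the median cell went the other way, at 15.8% and 14.1%, and the mean over cells differed by -1.08 points. The mean over cells was also turned in epithelial-like cells, at -0.271 points.

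The size of several of these differences depends on which cells are taken. In pericyte-like cells it was -0.100 with no cell filter, -0.448 with coarser clusters, -2.00 with doublets kept and -1.80 as the mean over cells. Macrophage or monocyte-like cells had 1.51 with no cell filter and 1.31 with doublets kept, and lymphocyte-like cells 0.774 with doublets kept and 0.973 as the mean over cells. As the mean over cells, the difference was 1.05 in mesothelial-like, 5.02 in dendritic-like, -1.47 in vascular endothelial-like and -1.75 in stromal-like cells. With no cell filter it was 0.936 in lymphatic endothelial-like cells, -0.133 in epithelial-like cells and 0.034 in vascular endothelial-like cells. The vascular endothelial-like value was also -0.224 with coarser clusters, -0.281 with members among the variable genes and -0.810 over nuclear genes. Neither coarser clusters nor unfiltered cells gave a dendritic-like class, so its difference has no such value.

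Depth moved with some of the differences in share and against others. The median cell held 14770.5 and 10168 UMIs in the stromal-like class, 10296.5 and 9069 in the smooth muscle-like class and 7695 and 9519 in macrophage or monocyte-like cells. In vascular endothelial-like cells it held 8474 and 10361 beside a lower share, and in lymphatic endothelial-like cells 7867.5 and 6740 beside a higher share. Mesothelial-like cells, with a higher share, had nearly equal depth, at 18089 and 18471. Mitochondrial UMIs made up 6.19% and 5.64% of the stromal-like class and 8.37% and 7.05% of the smooth muscle-like class. Over nuclear genes alone, the ribosomal share differed by -1.31 points in the stromal-like and by -2.65 points in the smooth muscle-like class. The part of depth and of mitochondrial UMIs in the differences was not tested. Over cells, the ribosomal share and depth had a Spearman's rho of 0.003 and 0.237 in the stromal-like class and of 0.381 and 0.350 in the smooth muscle-like class, a description over cells of 1 library that share its depth.

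Within the stromal-like class the share followed the cluster. It ran from 37.3% and 35.9% in the cluster led by Frmpd4, Slc26a7 and Inmt to 21.3% and 22.1% in the cluster led by Cfd, Il6 and Bmper. The share was lower in DOX plus AMH in 8 of 9 clusters, and the cluster led by Cfd and Il6, a cytokine gene, was the exception. The cluster led by Col14a1 and Prlr, the prolactin receptor, had 26.6% and 24.2%, and the dividing cluster 26.8% and 25.1%. Without the dividing cluster the stromal-like difference was -1.40 points, and with each cluster given the same weight in both libraries it was -1.52. In smooth muscle-like cells the cluster led by Tnni2 and Acta1 had 24.3% and 22.7%, and the cluster with Actg2 and Cnn1 among its leading genes had 25.3% and 22.7%.

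**Figure D2:**
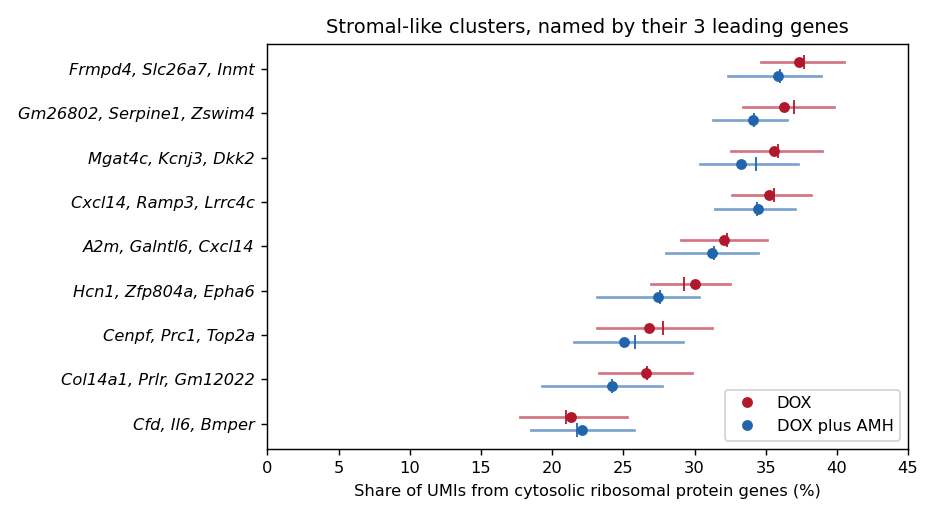
Share of UMIs from ribosomal protein genes (x axis, %) in the 9 stromal-like clusters, each named by its 3 leading genes (y axis), in DOX (red) and DOX plus AMH (blue). Dots are the pooled share, ticks the median cell and bars the quartiles over cells. The clusters span from 37.3% to 21.3% in DOX, and only the lowest one, led by Cfd and Il6, stood higher in DOX plus AMH.

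By CPM, single members differed little between the libraries, and few passed a ratio of 1.3-fold, which is used here as a limit of size and not as a test. In stromal-like cells 80 members had at least 100 UMIs, with Rpl3l (10 and 22 UMIs) under that limit. Of these, 2 were at least 1.3-fold lower in DOX plus AMH, where 7.38% of 14547 genes were, and 0 were at least 1.3-fold higher, where 20.3% of genes were. Their median log2 ratio was -0.07, with 58 below 0 and 22 above it, against 0.14 for all genes. Here and below, all genes are those with at least 100 UMIs, most of them at lower levels and with wider counting intervals than the members. Other genes closer to the members in level are given with coding length below. Among smooth muscle-like cells, 2 of 80 were lower (background 6.63% of 10847 genes) and 0 higher (background 18.1%), with a median of -0.17 against 0.13 for all genes. The scaling sets these counts. Under TMM scaling, which centres the bulk of genes, ratios shifted by -0.19 in the stromal-like class and by -0.13 in the smooth muscle-like class. Then 13 and 20 members were lower, where 14.3% and 10.8% of genes were, and 0 were higher in either class, where 9.31% and 9.86% of genes were. The share of lower members is then above its background in smooth muscle-like cells and near it in stromal-like cells. The members' medians were -0.26 and -0.30. At a limit of 1.5-fold 0 members were lower (background 4.36% and 3.48%) and 0 higher (background 8.74% and 6.7%). With a minimum of 20 UMIs the lower members were again 2 and 2 (background 8.99% and 10.1%), and the higher ones were Rpl3l alone in stromal-like cells (background 26.2%) and 0 in smooth muscle-like cells (background 22.9%).

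In the other classes the members' counts were read in the same way. Of 80 members, 14 were at least 1.3-fold higher in macrophage or monocyte-like cells (background 22.9%), 11 in dendritic-like (18.3%), 10 in mesothelial-like (12%), 8 in lymphatic endothelial-like (11.8%) and 2 in epithelial-like cells (10.2%). Of 79 in lymphocyte-like cells 4 were higher (15%). These shares lie near or under the background of each class. That background is mostly of genes at lower levels, whose wider counting intervals let more of them pass 1.3-fold by counting error. The comparison is therefore not at like precision and cannot show that the members differed less than other genes. By CPM, the counting interval in macrophage or monocyte-like cells lay above 0 for 66 of the 80 members and below 0 for 5. The same count was not made over all genes, and the members' intervals are narrow because of their high levels. The count is therefore not a result about the members. Under TMM scaling their median in this class was 0.08. Under TMM scaling the higher members were 24 in mesothelial-like (background 19.1%), 7 in macrophage or monocyte-like (15.3%), 6 in lymphatic endothelial-like (9.56%), 3 in lymphocyte-like (13.3%), 2 in epithelial-like (9.36%) and 1 in dendritic-like cells (11.1%). The mesothelial-like share is then above its background. At least 1.3-fold lower were 1 of 80 in dendritic-like (16.9%), 1 of 79 in pericyte-like (11.4%) and 1 of 80 in vascular endothelial-like cells (8.28%), and in each case this was Rps27l. No member was lower in macrophage or monocyte-like (14.1%), mesothelial-like (29.6%), lymphatic endothelial-like (14.8%), epithelial-like (10.2%) or lymphocyte-like cells (17.6%). No member was higher in pericyte-like (19%) or vascular endothelial-like cells (12%). Under TMM scaling 3 members were lower in pericyte-like (15.5%) and 1 in macrophage or monocyte-like cells (20.8%). The members' median was 0.21 in macrophage or monocyte-like cells (all genes 0.09), 0.17 in dendritic-like (0.02), 0.15 in mesothelial-like (-0.16) and 0.10 in lymphatic endothelial-like cells (-0.02). It was 0.06 in lymphocyte-like (-0.01), 0.01 in epithelial-like (-0.02), -0.07 in vascular endothelial-like (0.03) and -0.09 in pericyte-like cells (0.03). Under TMM scaling the sign of this median turned only in epithelial-like cells, at -0.01. The shift by that scaling was 0.16 in mesothelial-like, -0.12 in dendritic-like and -0.12 in macrophage or monocyte-like cells. The member median lay above that of all genes in the 6 classes whose ribosomal share was higher in DOX plus AMH and below it in the other 4.

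Neither subunit stood apart from the other. In stromal-like cells small subunit members took 46.9% and 46.8% of all ribosomal protein UMIs, large subunit members 49.0% and 49.3% and the stalk 4.10% and 3.84%. The median log2 ratio was -0.10 for the small subunit and -0.07 for the large. The smooth muscle-like class had -0.18 and -0.16. Single genes within each subunit ran wider than that, from -0.53 to 0.30 in the small subunit and from -0.27 to 0.31 in the large subunit of stromal-like cells.

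The proteins of the stalk, which draws translation factors to the large subunit, differed among themselves. Rplp0, the stalk's base, had 5338 and 3927 CPM in stromal-like cells, a log2 ratio of -0.44 (-0.45 to -0.43). Its level was 3420 and 2570 CPM in smooth muscle-like cells (-0.41, -0.44 to -0.39) and 2931 and 2322 CPM in the vascular endothelial-like class (-0.34). Rplp0 was lower in DOX plus AMH in each of the 9 stromal-like clusters, from -0.53 to -0.27. Rplp1, the acidic protein that binds to this base, was 5038 and 4998 CPM in stromal-like cells (-0.01), and its partner Rplp2 2954 and 3170 CPM (0.10). Rpl12, beside it at the stalk's base, was 3505 and 3049 CPM (-0.20). By CPM, the largest class of cells thus had lower Rplp0 beside nearly equal Rplp1 in DOX plus AMH. In macrophage or monocyte-like cells Rplp1 had a ratio of 0.55 and Rplp0 one of 0.10. Under TMM scaling the stromal-like ratio of Rplp0 was -0.63. That shift of -0.19 applies to each gene of the class and puts Rplp1 and Rplp2 below 0 as well. Near equality of Rplp1 thus holds by CPM only, while the distance between Rplp0 and Rplp1 is the same under either scaling.

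The proteins that carry 5S ribosomal RNA, Rpl5 and Rpl11, lay within the quartiles of the members in the stromal-like and the smooth muscle-like class, and parted in immune classes. In stromal-like cells Rpl5 was 1824 and 1846 CPM (0.02, 0.00 to 0.03) and Rpl11 3586 and 3227 CPM (-0.15, -0.16 to -0.14). Their ratios in the smooth muscle-like class were -0.06 and -0.19. Rpl5 was higher in the immune classes, with 0.51 in macrophage or monocyte-like, 0.37 in lymphocyte-like and 0.34 in dendritic-like cells, where Rpl11 had -0.04, -0.02 and -0.04. The quartiles of the members were 0.10 and 0.33 in macrophage or monocyte-like and 0.08 and 0.26 in dendritic-like cells, so that Rpl5 lay above them and Rpl11 below them. In stromal-like cells Mdm2, which these proteins bind, was 73.2 and 43.0 CPM (-0.77), and Trp53, the p53 gene, 47.2 and 49.3 CPM (0.06, -0.02 to 0.14). Rpf2, which helps Rpl5 and Rpl11 into the ribosome, was 13.1 and 18.2 CPM (0.47).

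Among small subunit proteins, Rpsa, also known as a laminin receptor, was 4601 and 4515 CPM in stromal-like cells (-0.03). Rps2, near the messenger entry channel, was 5292 and 5465 CPM (0.05), and Rps3, which also acts in DNA repair, 3332 and 3045 CPM (-0.13). Rps6, the substrate of S6 kinase, was 1765 and 1735 CPM (-0.02). The lowest ratios after Rps27l and Rplp0 were those of Rps20, at 7928 and 6471 CPM (-0.29), and of the large subunit protein Rpl15, at 3800 and 3161 CPM (-0.27). In smooth muscle-like cells Rps20 was 5398 and 4176 CPM (-0.37) and Rps7 3777 and 2994 CPM (-0.33). The highest ratios belonged to very short genes. In stromal-like cells Rpl38 was 3748 and 4661 CPM (0.31, 0.31 to 0.32), Rps28 5799 and 7119 CPM (0.30), Rps21 5346 and 6399 CPM (0.26) and Rps27 3035 and 3543 CPM (0.22). In smooth muscle-like cells Rpl41 was 5094 and 6081 CPM (0.26), Rpl38 2618 and 3027 CPM (0.21), Rps29 4284 and 4932 CPM (0.20) and Rps21 4339 and 4919 CPM (0.18). Under TMM scaling Rpl38 and Rps28 stayed above 0 in stromal-like cells, at 0.12 and 0.11.

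**Figure D3:**
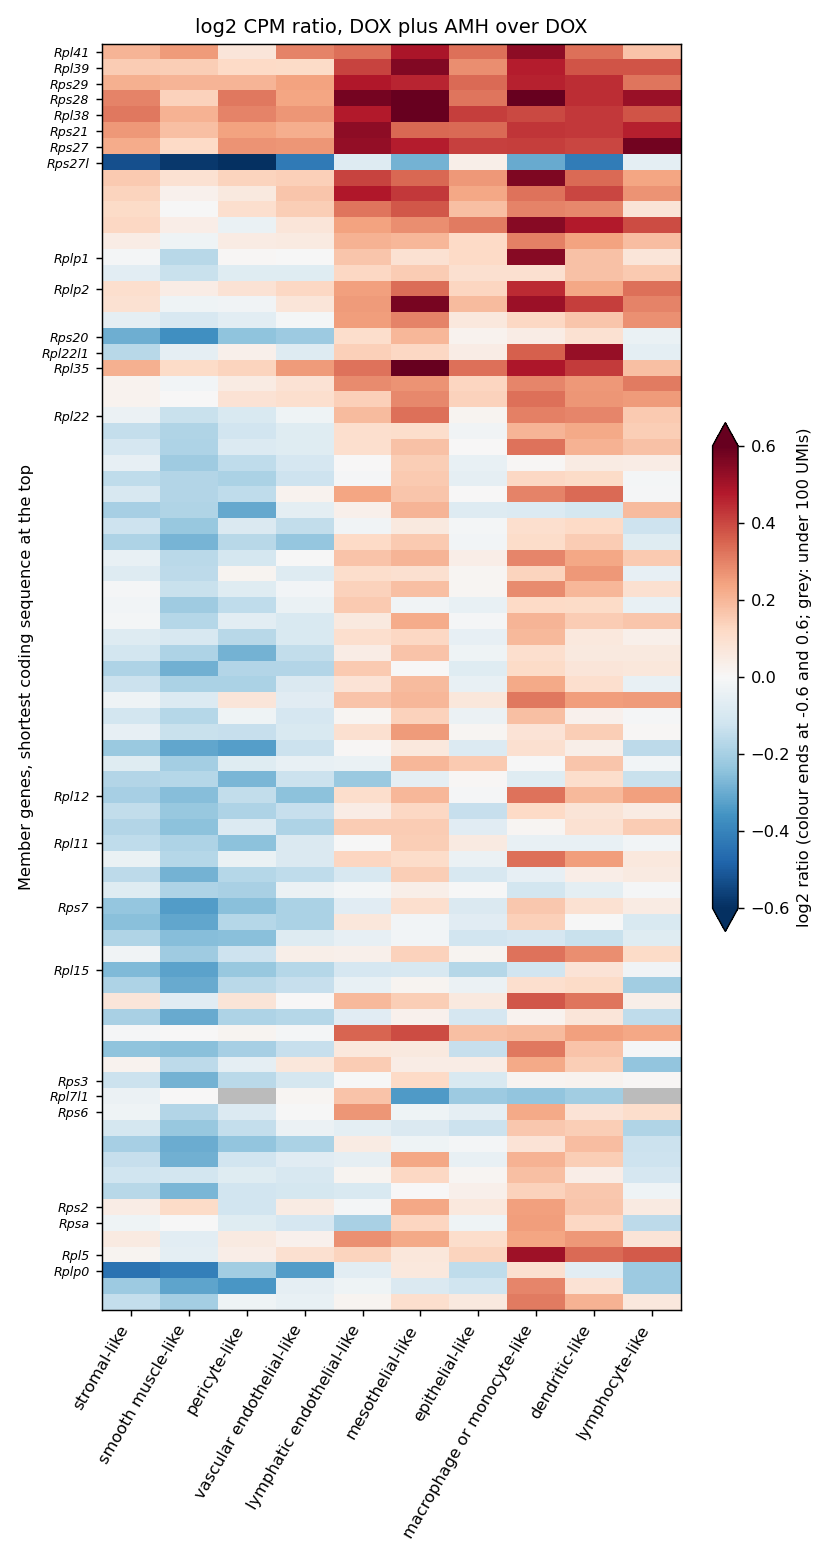
log2 CPM ratio, DOX plus AMH over DOX, for 80 members (rows, shortest coding sequence at the top) in the 10 classes (columns). Red is higher and blue lower in DOX plus AMH, the colour ends at -0.6 and 0.6, and grey marks values under 100 UMIs. Names are given for some of the members described in the text. The 10 upper rows are above 0 in every column except for Rps27l, the blue row among them, down to -1.07 in pericyte-like cells.

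Which members stood high and low was alike from class to class. Of the 79 members measured in all 10 classes, 20 lay above their class's member median in every class and 10 below it in every class. The classes are different cells of the same 2 libraries and not separate experiments, and free RNA of the library reaches all of them. The 20 were Rpl23a, Rpl31, Rpl35, Rpl35a, Rpl36, Rpl36a, Rpl37, Rpl37a, Rpl38, Rpl39, Rpl41, Rpl6, Rplp2, Rps15, Rps21, Rps25, Rps26, Rps27, Rps28 and Rps29. The 10 included Rpl13, Rpl15, Rpl19, Rplp0, Rps10, Rps3, Rps7 and Rps9. Rps28, a small protein near the messenger exit, ran from 0.14 in smooth muscle-like to 0.60 in macrophage or monocyte-like cells, where its level was 2776 and 4202 CPM. Rpl38, whose loss is known to alter the mouse skeleton, ran from 0.21 in smooth muscle-like to 0.68 in mesothelial-like cells, where its level was 1783 and 2849 CPM. Rps27 reached 0.58 in lymphocyte-like cells, at 2803 and 4184 CPM.

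These members differed in length. The coding sequence of the 20 had a median of 316.5 bases, from 75 to 888, and that of the 10 a median of 600 bases, from 474 to 951. Across members, the ratio and the coding length had a negative Spearman's rho in every class, from -0.39 in macrophage or monocyte-like to -0.61 in mesothelial-like cells, with -0.46 in stromal-like and -0.49 in smooth muscle-like cells (79 or 80 genes, a description across genes that share 2 libraries). In stromal-like cells the 10 members under 300 coding bases had a median ratio of 0.21, the 28 members from 300 to 449 bases -0.05, the 19 from 450 to 599 bases -0.15 and the 20 from 600 to 899 bases -0.07. Taken at all levels, other genes of stromal-like cells did not show that order. Their medians were -0.00, -0.01, 0.01 and 0.07 in the same bins (280, 634, 760 and 1744 genes), with a rho of 0.20 over 12826 genes. Other genes of at least 200 CPM, closer to the members in level, had -0.06 (42 genes), -0.09 (49), -0.19 (36) and -0.13 (40) in these bins. That is the same order of bins as in the members, over a narrower range. Their rho was 0.29 over all lengths (391 genes), which include coding sequences longer than those of the members. In mesothelial-like cells other genes also sloped down with length, at a rho of -0.29 against -0.61 for the members, as they did in epithelial-like cells, at -0.15 against -0.59, and weakly in lymphatic endothelial-like cells, at -0.04 against -0.60. GC content of the transcript had a rho between -0.07 and 0.10 with the members' ratios. Of the 10 members under 300 bases the exception was Rps27l, while the other 9 lay above the member median in all 10 classes. By CPM these 9 were also above 0 in all 10 classes, whereas under TMM scaling 7 of their 90 values fell below 0, namely Rpl37 in pericyte-like, smooth muscle-like and stromal-like, Rpl37a in smooth muscle-like and stromal-like, Rpl39 in stromal-like and Rps27 in smooth muscle-like cells, the lowest at -0.10. Depth differed between the libraries as given above, and its part in this relation was not tested.

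**Figure D4:**
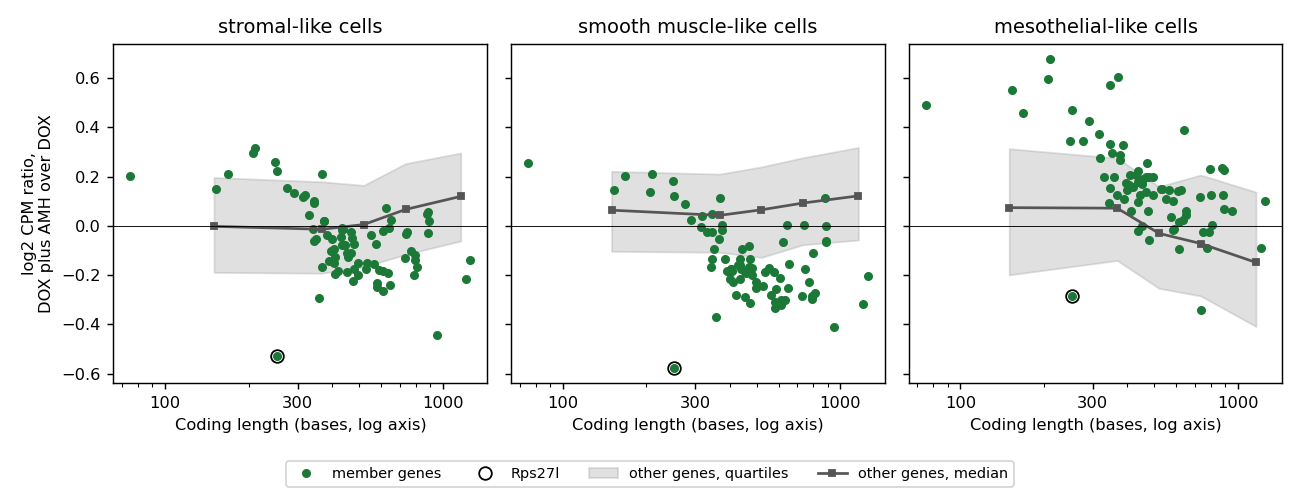
log2 CPM ratio, DOX plus AMH over DOX (y axis), against coding length in bases (x axis, log axis) in stromal-like, smooth muscle-like and mesothelial-like cells. Green dots are member genes, the black ring is Rps27l, and the grey line and band are the median and quartiles of other genes in length bins up to 1499 bases. Short members sit above longer ones in each panel, and Rps27l (-0.53, -0.58 and -0.28) sits below them.

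Rps27l stood apart from the other members by both its levels across classes and its ratios. It shares a coding length of 252 bases with Rps27. Its share of ribosomal protein UMIs ranged 5.36-fold over classes, from 0.122% in lymphocyte-like to 0.652% in lymphatic endothelial-like cells, while the median member ranged 1.35-fold over classes. Members that also ranged at least 2-fold included Rpl22l1 (2.53-fold, highest in stromal-like cells), Rpl7l1 (2.20-fold, highest in macrophage or monocyte-like cells) and Rps29 (2.12-fold, highest in macrophage or monocyte-like cells).

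The level of Rps27l was lower in DOX plus AMH by more than its counting interval in 7 of 10 classes. It was 532 and 369 CPM in stromal-like cells (-0.53, -0.55 to -0.50), 1014 and 680 CPM in smooth muscle-like cells (-0.58, -0.62 to -0.53) and 712 and 338 CPM in pericyte-like cells (-1.07, -1.29 to -0.86). These are the classes with the lowest ratios. The pericyte-like value depends on how that class is drawn, at -0.38 with coarser clusters and -0.55 with no cell filter. It was 495 and 369 CPM in vascular endothelial-like (-0.42), 1166 and 871 CPM in dendritic-like (-0.42), 968 and 785 CPM in macrophage or monocyte-like (-0.30) and 1008 and 828 CPM in mesothelial-like cells (-0.28). In 3 classes the interval held 0, namely lymphatic endothelial-like cells with 1178 and 1115 CPM (-0.08, -0.19 to 0.03), lymphocyte-like cells with 329 and 316 CPM (-0.06, -0.37 to 0.25) and epithelial-like cells with 367 and 376 CPM (0.04, -0.03 to 0.11).

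Its paralog Rps27 was higher in DOX plus AMH by CPM in all 10 classes, from 0.12 in smooth muscle-like to 0.58 in lymphocyte-like cells, but under TMM scaling the smooth muscle-like value was -0.01. As a share of the UMIs of both genes, Rps27l was 14.9% and 9.43% in stromal-like cells and 30.0% and 20.9% in smooth muscle-like cells. The highest shares were those of lymphatic endothelial-like cells, at 41.3% and 31.7%, and the lowest those of lymphocyte-like cells, at 10.5% and 7.03%. In epithelial-like cells they were 10.8% and 8.59%. The share was thus lower in DOX plus AMH in each class, also in the 3 where the interval of the Rps27l ratio held 0. In those 3 the lower share went with higher Rps27, at 0.53 in lymphatic endothelial-like, 0.58 in lymphocyte-like and 0.41 in epithelial-like cells.

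**Figure D5:**
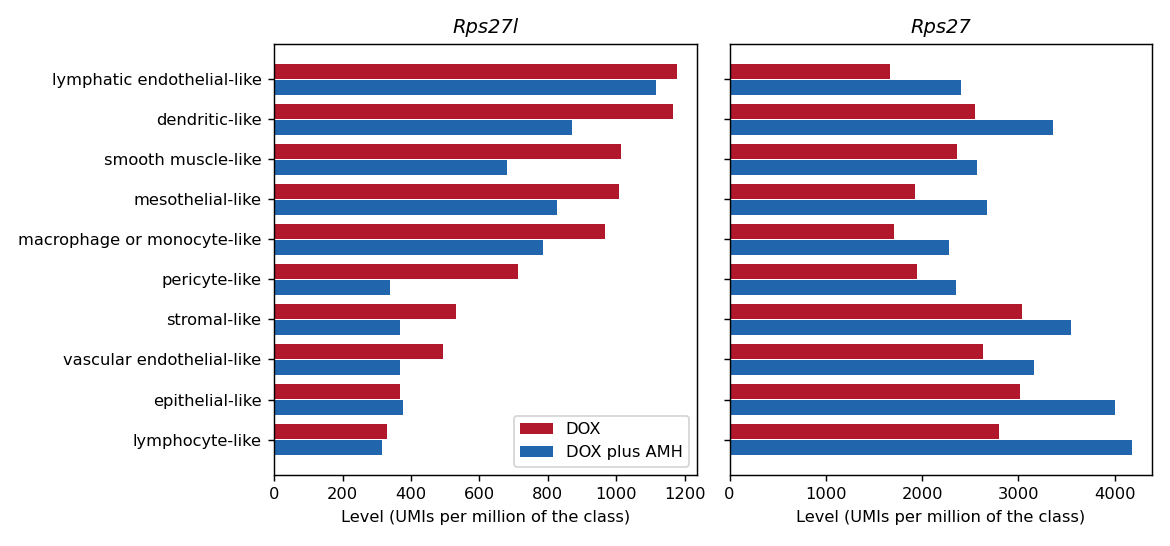
Levels of Rps27l (left) and Rps27 (right) in CPM of the class (x axes, starting at 0 and differing in range) in the 10 classes (y axis), in DOX (red) and DOX plus AMH (blue), 1 library each. Rps27l was lower in DOX plus AMH in 9 classes and near equal in epithelial-like cells (367 and 376 CPM), while Rps27 was higher in all 10 by CPM (-0.01 on the log2 scale in smooth muscle-like cells under TMM scaling).

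Within the stromal-like class the Rps27l ratio ran from -0.85 to 0.00 over the 9 clusters, with a median of -0.26. It was lowest in the cluster led by Col14a1, at 896 and 497 CPM (-0.85, -0.91 to -0.79), followed by the dividing cluster, at 915 and 579 CPM (-0.66). The cluster led by Cfd and Il6 had 1220 and 880 CPM (-0.47). In the cluster led by Mgat4c and Kcnj3 the levels were 307 and 308 CPM (0.00, -0.09 to 0.09). The 4 clusters with the highest DOX levels, from 422 to 1220 CPM, had the 4 lowest ratios, an order that the DOX level itself enters. Weighting clusters alike gave -0.42 for the class, and leaving out the dividing cluster gave -0.46.

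Most other p53 targets were lower along with Rps27l in stromal-like, smooth muscle-like, pericyte-like and macrophage or monocyte-like cells, but not in every class. In a list of 20 p53 targets that holds no ribosomal protein gene, 14 were at least 1.3-fold lower (background 7.38%) and 1 higher (20.3%) in stromal-like cells (median -0.73). The counts in smooth muscle-like cells were 18 lower (6.63%) and 1 higher (18.1%), with a median of -1.17. Macrophage or monocyte-like cells, where Rps27l had -0.30, had 10 of 17 lower (14.1%) and 1 higher (22.9%), with a median of -0.44. Dendritic-like cells, where Rps27l had -0.42, had 5 of 11 lower (16.9%) and 0 higher (18.3%), with a median of -0.34. In pericyte-like cells 7 of 8 measured were lower (11.4%; median -1.11), and in epithelial-like cells 6 of 16 were lower (10.2%) and 1 higher (10.2%; median -0.02). In mesothelial-like cells, where Rps27l had -0.28, 9 of 20 were lower (29.6%) and 4 higher (12%), with a median of -0.23. The 4 were Gdf15 (0.98), Plk2 (0.72), Mdm2 (0.41) and Fas (0.38). Cdkn1a, which encodes the cell cycle brake p21, stood at 174 and 84.4 CPM in the stromal-like class and at 654 and 287 CPM in the smooth muscle-like class, but at 835 and 895 CPM in mesothelial-like cells (0.10). In lymphatic endothelial-like cells, where Rps27l had -0.08, 5 of 16 were lower (14.8%) and 2 higher (11.8%), with a median of -0.26. Only 3 were measured in lymphocyte-like cells, where Rps27l had -0.06, with 2 lower (17.6%), 0 higher (15%) and a median of -0.44. Over the 10 classes the Rps27l ratio and the list median had a Spearman's rho of 0.76 and a Pearson's r of 0.83, a description over classes of the same libraries. With the median of the ribosomal members, the Rps27l ratio had 0.58 and 0.50. The p53 list was already known to be lower here when it was chosen, so it gives no separate support.

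Within the stromal-like and the smooth muscle-like class Rpl22l1 and Rpl7l1 lay nearer to 0 than Rps27l. Rpl22l1, the copy of Rpl22, gave 49.1% and 46.9% of the UMIs of both genes in stromal-like and 20.3% and 23.0% in dendritic-like cells. In stromal-like cells Rpl22 was 1958 and 1909 CPM (-0.04) and Rpl22l1 1889 and 1683 CPM (-0.17), and in dendritic-like cells Rpl22l1 was 453 and 652 CPM (0.52). By CPM that ratio was further from 0 than that of Rps27l in the same cells (-0.42), as was the ratio of 0.36 in macrophage or monocyte-like cells (Rps27l -0.30). TMM scaling shifts ratios by -0.12 in both classes, which brings Rpl22l1 nearer to 0 and takes Rps27l further from it. Under that scaling the order of the 2 genes turns in both classes. Rpl7l1, a nucleolar relative of Rpl7, was 51.6 and 50.4 CPM in stromal-like cells (-0.03, -0.11 to 0.04) beside Rpl7 at 2756 and 2454 CPM (-0.17). Rpl3l had 34 and 70 UMIs over all kept cells, against 2792 and 2401 CPM of Rpl3 in stromal-like cells alone. Ribosomal protein genes have many near-identical copies in the mouse genome, and reads that fit a copy as well cannot be told apart in a UMI table, so the level of a single member may be too low or too high.

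Members whose annotated start fits the TOP motif had the same median ratio as the others in smooth muscle-like cells. The annotated start can lie some bases away from the start used, so a member without the match may still have a TOP start. The split therefore cannot tell members with the motif from those without it. There the 13 with such a start had a median of -0.16 and the 47 without one -0.16. In stromal-like cells the medians were 0.02, from -0.27 to 0.31, and -0.05, from -0.53 to 0.30. Rpl15, with a run of 17 pyrimidines at its start, and Rpl38, with a run of 10, had ratios near the lowest and highest of these (-0.27 and 0.31), and Rps28, with no such run, had 0.30. Rpl35 and Rps18, whose starts also fit the motif, had 0.21 and -0.13.

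Genes that work with the ribosome were compared as lists. The symbol rule leaves out a few cytosolic ribosomal protein genes, and these were read in stromal-like cells. Among them Rps27rt, a retrogene of Rps27, was 63.0 and 81.8 CPM (0.38). Fau was 4095 and 4062 CPM (-0.01) and Rpl36al 606 and 534 CPM (-0.18). The list of 17 translation factors, many of which are known for TOP starts, had a median of -0.13 in stromal-like and -0.14 in smooth muscle-like cells, with 0 past 1.3-fold in either direction. Together they took 2.11% and 1.88% of stromal-like UMIs, and Eef1b2, a subunit of the elongation factor exchange complex, was 2033 and 1717 CPM (-0.24). The list thus lay nearer to the members' medians (-0.07 and -0.17) than to those of all genes (0.14 and 0.13). All genes are mostly of lower level, however. Other stromal-like genes of at least 200 CPM also had medians below 0 in each of the length bins given above. Those bins leave out longer coding sequences. Over all lengths, the ratio of these other genes rose with coding length (rho 0.29, 391 genes). The translation factors were not matched to them by length, so whether this nearness is particular to ribosomal genes was not tested.

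The machinery that builds ribosomes had a median ratio near that of all genes in stromal-like cells (0.14), but fewer genes past 1.3-fold. There the 46 ribosome biogenesis genes had a median of 0.15, with 2 higher (background 20.3%) and 0 lower (7.38%), and 18 genes of RNA polymerases I and III and their factors 0.22, with 2 higher and 0 lower. The same lists had 0.08 (44 genes) and 0.04 (17 genes) in the smooth muscle-like class. Polr1a, the large subunit of RNA polymerase I, was 14.5 and 20.6 CPM in stromal-like cells (0.51). Of 22 genes of mTORC1 and its control of TOP messages, 5 were higher and 1 lower in stromal-like cells, shares near those of all genes (20.3% and 7.38%), with a median of 0.16. Deptor, an inhibitor of mTOR, was 22.9 and 35.4 CPM (0.63) and Tsc1, an inhibitor of mTORC1, 25.6 and 35.8 CPM (0.48), whereas Sesn2, a p53 target that restrains mTORC1, was 14.0 and 6.65 CPM (-1.07). The 78 mitochondrial ribosomal protein genes, which serve the separate ribosome of mitochondria, had medians of -0.04 in stromal-like and 0.01 in smooth muscle-like cells, with 1 lower and 0 higher (background 7.38% and 20.3%), and 0 lower and 1 higher (6.63% and 18.1%).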

How the data were processed

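The authors processed 10x Genomics 3' v3.1 reads with Cell Ranger 7.0.0 on mm10, per the submitters' processing notes, and deposited UMI counts per gene and barcode; how reads from gene copies or introns were counted is not given in the sources used here. Total UMIs were 129530270 (DOX, 9258 barcodes) and 97887259 (DOX plus AMH, 8083 barcodes), and the lowest barcode had 500, so barcodes had been filtered before deposit. Barcodes with at least 1000 UMIs, 500 genes and at most 15% mitochondrial UMIs were kept (7783 and 7065). Scrublet in scanpy 1.11.5 set a threshold of 0.191 in DOX. In DOX plus AMH its own threshold of 0.598 called 0 doublets, so 0.191 was used in both, removing 396 (5.09%) and 327 (4.63%). Cells were clustered together (2000 variable genes without the members, 30 components, 15 neighbours, Leiden resolution 1, igraph 0.11.9), without integration or removal of free RNA, and clusters were named from marker genes by a score set after seeing the data.

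Members, gene lists and markers were chosen with earlier results of these data known. UMIs were summed per class and library and scaled to CPM. Ratios carry exact 95% intervals from the binomial split of UMIs, and shares exact Clopper-Pearson intervals. With 1 library a group no test was made, and a limit of 1.3-fold among genes with at least 100 UMIs in the class replaced it. The interval script was tested on simulated data. Named members were the 5 with most UMIs, the 4 members at each end of the ratios in the stromal-like and the smooth muscle-like class and 1 at each end elsewhere, the paralog and role groups, the 5 whose share differed most between classes and the 2 highest and 2 lowest of each related list, of which the text gives a shorter set. A few genes that meet these rules are not reported here. Stromal-like clusters, lengths and other genes were chosen for description with values known. Coding lengths came from GENCODE vM21 (found for 81 of 81 members) and start sequences from RefSeq (GRCm38.p6). TMM factors were computed with edgeR 4.0.16 in R 4.3.3 as an alternative scaling, without its tests. Also tried were no filter on cells, a tighter one at 2000 UMIs, 1000 genes and 10% mitochondrial UMIs, keeping doublets, a Leiden resolution of 0.5, members among the variable genes, scaling to nuclear or to other genes, the mean over cells, clusters weighted alike, at least 20 UMIs, a 1.5-fold limit and, added after seeing the data, leaving out the dividing cluster and TMM scaling in the classes other than stromal-like and smooth muscle-like.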

Additional observations from a re-analysis of the deposited data

Results flagged for a closer look

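In 6 classes the share of UMIs from ribosomal protein genes differed between the libraries in the direction opposite to stromal-like cells (-1.04 percentage points, DOX plus AMH minus DOX). The differences were 0.956 points in epithelial-like, 1.66 in lymphocyte-like, 3.04 in dendritic-like, 1.71 in lymphatic endothelial-like, 2.80 in macrophage or monocyte-like and 2.33 in mesothelial-like cells. With 1 library a group, the difference between classes was not tested.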

How the results depend on the processing

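With 1 library a group, intervals cover counting error only, nothing was left out in turn, and neither pools nor animals give a spread. No paired analysis was possible because each group is a single library. In smooth muscle-like cells the ribosomal share differed by -2.10 points, and by -2.29 with the stricter filter, -2.43 with doublets kept, -2.05 with members among the variable genes, -2.65 over nuclear genes and -1.67 as the mean over cells. In stromal-like cells it was -1.04, and -1.09 with no cell filter, -0.902 with the stricter filter, -1.02 with doublets kept, -1.31 over nuclear genes, -1.75 as the mean over cells, -1.52 with clusters weighted alike and -1.40 without the dividing cluster. The sign turned in epithelial-like cells with no cell filter (-0.133) and as the mean over cells (-0.271), in lymphatic endothelial-like cells as the mean over cells (-1.08) and in vascular endothelial-like cells with no cell filter (0.034), and the cause was not tested. Of 79 such values under alternatives, 28 stayed within the counting interval. In classes of a single cluster, which are all but the stromal-like and smooth muscle-like ones, weighting clusters alike returns the same value by construction. Such values are part of the 28 and of the counts for single members and coding length below. Members at least 1.3-fold lower were 2 in each of stromal-like and smooth muscle-like cells, against 13 and 20 under TMM scaling and 0 and 0 at a limit of 1.5-fold. Members higher in stromal-like cells were 0, against 1 (Rpl3l, 32 UMIs) at 20 UMIs. Of 779 values of single members, 546 stayed within the counting interval and 0 of those past 1.3-fold changed sign. The relation with coding length was below 0 in 79 of 79 values, from -0.63 to -0.36, of which 69 came from alternatives and the rest are the values as reported.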

Other observations

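The ribosomal shares of classes short of 50 cells in either library are given here as values. Squamous-like cells (Krt13, Krt14, Trp63), nearly all of the DOX plus AMH library, had 23.8% in 7 cells and 32.3% in 482 cells. Ciliated-like cells had 45.2% in 51 and 14.8% in 32 cells, at median depths of only 2007 and 2435 UMIs. The erythroid-like cluster led by the haemoglobin genes Hba-a2, Hba-a1 and Hbb-bs had 31.0% in 6 and 18.9% in 52 cells. A cluster of 34 cells of DOX plus AMH, led by Mmp12 and with Hbb-bs and Gpnmb among its leading genes, is given no cell type name and had 22.4%. Glial-like cells had 8.78% in 10 and 13.2% in 17 cells. The lowest shares belonged to neutrophil-like cells (S100a8, S100a9), with 4.46% in 2 and 4.45% in 12 cells. The other clusters without a name held 328 of 7387 and 265 of 6738 kept cells and had 21.4% in both libraries. Among them, the cluster led by Mustn1, Map3k7cl and Rergl, whose markers lay between smooth muscle and pericyte, had 148 and 240 cells with 19.2% in both.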
